A study of Mus musculus with 49 samples.

Results

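Mt1 and Mt2 encode the main metallothioneins of mouse liver, and this section follows their transcripts from 1 h to 16 d after an acetaminophen overdose. The members were taken as the probe sets that the probe annotation assigns to the symbol Mt1 or Mt2 alone. They numbered 3 of the 34958 single-symbol probe sets on the array: 1422557_s_at and 1451612_at for Mt1, and 1428942_at for Mt2. The study hybridised liver RNA of male C57BL6/N mice to Affymetrix mouse genome arrays. Treated mice had received acetaminophen (APAP), in phosphate-buffered saline, intraperitoneally at 300 mg/kg, after overnight starvation and with free feeding afterwards according to the series' design text. The 49 arrays comprised controls and 9 times after the dose: hours 1, 6 and 12, and days 1, 2, 4, 6, 8 and 16. The 6 h group had 4 arrays and each of the rest 5. The 16 d group is named in the labels but not in the design text, and neither source states whether control mice were starved or given vehicle. The labels number arrays within a group without stating that each is a separate mouse, so p-values measure the spread between these arrays, which may be technical in part.

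Metallothioneins are small, cysteine-rich cytosolic proteins that bind zinc and copper and can scavenge reactive species. Zinc released into the cytosol activates the transcription factor MTF-1, which binds metal response elements in their promoters. Glucocorticoids and interleukin 6 acting through STAT3 also raise their transcription in hepatocytes, so they respond to metals, stress, fasting and the acute phase. Acetaminophen is converted by cytochrome P450 enzymes of pericentral hepatocytes to a reactive quinone imine that depletes glutathione.

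In RefSeq (build GRCm38.p6) the 4 mouse metallothionein genes lie side by side on chromosome 8 in the order Mt4, Mt3, Mt2, Mt1, with 1 long noncoding RNA gene, Gm39227, between Mt3 and Mt2. The 250 bases before the RefSeq start of Mt2 (chr8:94172368-94172617, plus strand) and of Mt1 (chr8:94178839-94179088, plus strand) are shown because metal response elements are the defining control sequence of this family. Capitals mark matches on either strand to the metal response element core, searched as TGCACNC or TGCGCNC.
Mt2: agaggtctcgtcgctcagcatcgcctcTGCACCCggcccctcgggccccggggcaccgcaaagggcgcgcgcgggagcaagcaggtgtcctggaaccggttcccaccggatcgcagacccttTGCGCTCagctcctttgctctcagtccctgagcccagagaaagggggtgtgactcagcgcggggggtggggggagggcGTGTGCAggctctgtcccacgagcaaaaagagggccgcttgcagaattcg
Mt1: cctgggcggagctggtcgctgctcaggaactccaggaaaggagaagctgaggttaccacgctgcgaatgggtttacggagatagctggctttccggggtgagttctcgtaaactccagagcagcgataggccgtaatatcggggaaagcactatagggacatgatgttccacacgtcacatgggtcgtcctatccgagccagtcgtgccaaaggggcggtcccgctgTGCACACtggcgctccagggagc
The Mt2 window held 3 matches, at 223, 128 and 50 bases before the start (first base of each), and the Mt1 window held 1, at 23 bases before it. A further 2 matches for Mt1 and 1 for Mt2 fell in the 50 bases after the RefSeq start, which are not printed. Of 32851 promoter windows of this length, 21.4% held at least 1 match and 1.26% held at least 3. The antioxidant response element core TGACNNNGC was found once in the Mt2 window, 79 bases before the start, and not in that of Mt1, against 10.2% of all windows. The STAT site TTCNNNGAA, present in 7.02% of windows, was in neither. Sequence further past the RefSeq starts was not searched, and whether these starts are the ones used in liver was not checked. The counts thus describe these windows and not the whole control region of either gene, and they do not compare Mt1 with Mt2. The searched motifs can overlap each other, and a match is a string of letters and no measure of binding.

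All values below are log2 signals from robust multi-array averaging (RMA), as deposited, so a difference of 1 is a doubling. The deposited table is complete for the 25 arrays of the 1 h, 12 h, 1 d, 2 d and 16 d groups. On the other 24 arrays (control, 6 h, 4 d, 6 d and 8 d) it holds only the first 8137 or 8138 probe sets. The brighter Mt1 probe set, 1422557_s_at, is among these and was followed over all 10 groups, and Mt2 and the dimmer Mt1 probe set over the complete arrays. Comparisons used limma, fitted over all genes of a table (5976 genes on all arrays, 18194 on the complete ones), with adjusted p under 0.05 taken as called. The hepatocyte marker Apoa1 read 13.92 to 14.03 in control, and Alb read 14.15 to 14.24 at 16 d, where the kidney marker Umod read 2.78 to 3.29. In whole-liver RNA, fewer cells of a type and less RNA per cell cannot be told apart. The arrays control replicate 3, 1 h replicate 3 and 16 d replicate 4, had a narrower spread of values than the rest, and results that move without them are given both ways.

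Mt1 was called higher than control at 6 h, 12 h, 1 d and 2 d after the dose. The control arrays read 11.86, 10.71, 9.13, 9.84 and 13.00 (mean 10.91 ± 1.55, SD, n = 5), a 14.6-fold range within the control group. At 1 h the values were 12.64, 12.39, 12.67, 12.42 and 13.09 (12.64 ± 0.28, SD, n = 5). Of the 5 control arrays, 4 lay below every 1 h array, and the highest lay among the 1 h arrays. The 1 h difference was 1.74 ± 0.60 (SE) and was not called (limma adjusted p = 0.335). Its limma p before adjustment over all genes was 0.00576, at a time when 0.636% of genes were called. The 1 h arrays overlapped those of 2 d, whose mean was 12.82, so the calls do not date the start of the rise.

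At 6 h the 4 arrays read 13.67, 13.65, 13.64 and 13.52 (13.62 ± 0.07, SD, n = 4), the highest group mean and the smallest spread of the course. At 12 h they read 13.22, 13.77, 13.50, 13.71 and 13.38 (13.52 ± 0.23, SD, n = 5). Every array of these groups lay above every control array. The difference from control was 2.71 ± 0.63 at 6 h (6.55-fold, limma adjusted p = 0.00403) and 2.61 ± 0.60 at 12 h (6.09-fold, limma adjusted p = 0.000986). At 1 d the values of 13.65, 13.19, 12.85, 13.80 and 13.57 (13.41 ± 0.39, SD, n = 5) overlapped the highest control array alone. That difference was 2.50 ± 0.60 (5.66-fold, limma adjusted p = 0.00107).

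At 2 d Mt1 read 12.60, 13.00, 12.31, 13.00 and 13.19 (12.82 ± 0.36, SD, n = 5), a rise of 1.91 ± 0.60 over control (3.76-fold, limma adjusted p = 0.0113). This call rested on control replicate 3, the lowest control array and of narrow spread: without it the difference was 1.47 (limma adjusted p = 0.0647). Without all 3 narrow arrays the adjusted p from limma was 0.0505. The calls at 6 h, 12 h and 1 d were kept when each control array was left out in turn. The share of all 5976 genes called against control was 0.636% at 1 h, 5.67% at 6 h, 23.7% at 12 h, 29.7% at 1 d and 32.6% at 2 d. A call was thus less common among all genes at 6 h than at 2 d.

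From 4 d on, Mt1 was not called against control. The 4 d arrays read 10.55, 12.03, 12.47, 12.60 and 12.87 (12.10 ± 0.92, SD, n = 5), and the difference of 1.20 ± 0.60 missed the threshold (limma adjusted p = 0.184). Without the highest control array, replicate 5, it was 1.72 and called (limma adjusted p = 0.0422). At 6 d the values were 11.74, 13.38, 11.12, 11.78 and 11.40 (11.88 ± 0.88, SD, n = 5), with replicate 2 well above the others. At 8 d they were 9.40, 10.65, 9.09, 10.40 and 8.82 (9.67 ± 0.81, SD, n = 5), the lowest group mean of the course. The 8 d difference from control was -1.23 ± 0.60 (limma adjusted p = 0.235), -0.71 without control replicate 5 and -1.95 and called with array weights (limma adjusted p = 0.0106). The 6 d difference of 0.98 was 0.53 without control replicate 3 and 1.4997 without replicate 5. At 16 d the values spread from 8.20 to 13.27, as 8.20, 9.67, 9.53, 12.37 and 13.27 (10.61 ± 2.12, SD, n = 5), and the difference of -0.30 ± 0.60 changed sign without control replicate 5 or without 16 d replicate 1. The shares called were 16.5% at 4 d, 8.53% at 6 d, 8% at 8 d and 6.66% at 16 d.

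**Figure D1:**
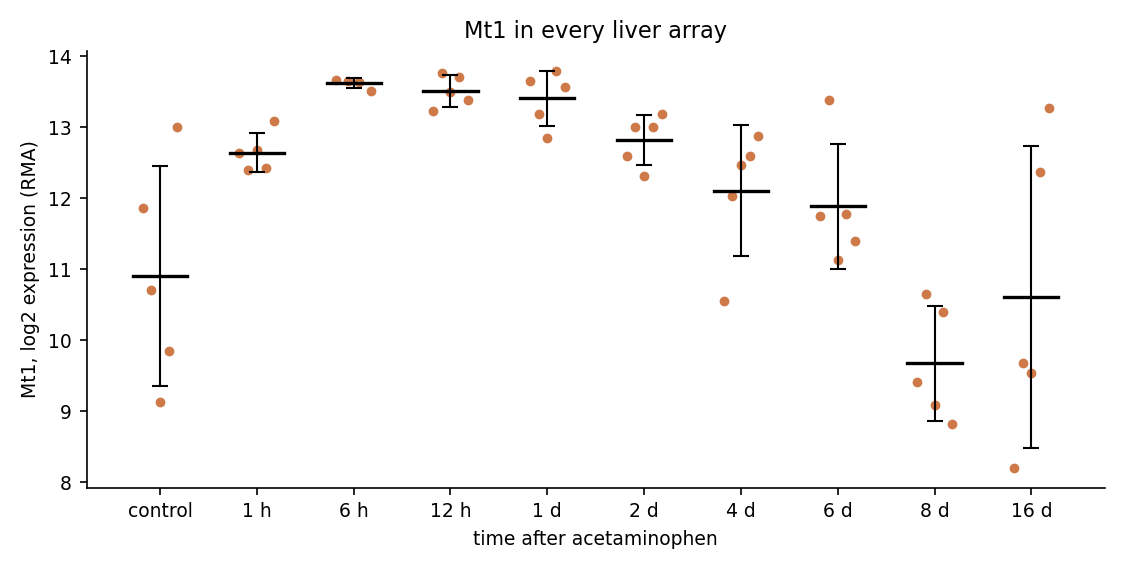
Log2 RMA expression of Mt1 (probe set 1422557_s_at, vertical axis) in the 49 liver arrays by group (horizontal axis); each point is an array, and black lines give the mean and SD. The 6 h arrays sit between 13.52 and 13.67, while the control arrays span 9.13 to 13.00 and the 16 d arrays 8.20 to 13.27.

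The spread of Mt1 differed much between groups, and each difference from control was also tested by an exact two-sided permutation test on Mt1 alone. This test shares no variance with other groups. It treats the arrays of the compared groups as exchangeable, so unequal spread between them can still affect its p. For 6 h, 12 h and 1 d the p adjusted over the 9 times was 0.0476 in this exact test. The exact test gave 0.0714 at 2 d and 0.0857 at 1 h, and above 0.2 at each later time. With 5 arrays against 5 the smallest p such an exact test can give is 0.00794.

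Between neighbouring times no step of Mt1 was called by limma. From 1 h to 6 h the groups did not overlap, every 6 h array being higher. The mean difference was 0.98 ± 0.63 (limma adjusted p = 0.493, 4.25% of genes called). Its exact permutation p was 0.0159, and 0.0635 adjusted over 8 steps. From 6 h to 12 h the difference was -0.10 (9.27% called), from 12 h to 1 d -0.11 (5.09% called) and from 1 d to 2 d -0.59 (14.2% called). The steps from 2 d to 4 d and from 4 d to 6 d were -0.72 and -0.22, where 19.2% and 2.38% of genes were called. Without 4 d replicate 1, the lowest of its group, they were -0.33 and -0.61, and without 4 d replicate 5 the second was -0.03. From 6 d to 8 d Mt1 differed by -2.21 ± 0.60, with no overlap between groups (limma adjusted p = 0.553; exact permutation p = 0.00794, 0.0635 adjusted over 8 steps). Limma called 0% of genes in that step, with 146 of 5976 at an unadjusted p under 0.05. From 8 d to 16 d the difference was 0.94 ± 0.60 (0.27 without 16 d replicate 5 and 1.54 without 16 d replicate 1), and limma again called 0%, with 328 genes under that unadjusted p.

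Ordered by mean, Mt1 ran 6 h, 12 h, 1 d, 2 d, 1 h, 4 d, 6 d, control, 16 d and 8 d from high to low. No neighbouring pair in this order differed beyond its spread: all 9 pairs overlapped, with exact permutation p adjusted over the 9 pairs from 0.5 to 0.802. Over all 9 contrasts with control together, the moderated F test of limma gave an adjusted p of 3.15e-07 for Mt1. It ranked 862 of 5976 genes by that test, in which 3259 genes were called.

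Mt2 had group means between 12.10 and 12.82 from 1 h to 2 d and was low on 3 of the 5 arrays at 16 d. It read 12.21, 11.75, 12.24, 11.82 and 12.48 at 1 h (12.10 ± 0.31, SD, n = 5). At 12 h it read 12.43, 13.29, 12.97, 13.05 and 12.33 (12.81 ± 0.41, SD, n = 5), and at 1 d 13.14, 12.70, 12.11, 13.30 and 12.86 (12.82 ± 0.46, SD, n = 5). Both groups overlapped the 1 h arrays. At 2 d it read 11.92, 12.31, 11.83, 12.70 and 12.70 (12.29 ± 0.41, SD, n = 5). The 16 d arrays read 6.49, 8.24, 8.24, 11.94 and 12.91 (9.56 ± 2.73, SD, n = 5). Replicates 1 to 3 lay below every array of the earlier groups, and replicates 4 and 5 lay within their range. Between its highest and lowest 16 d array Mt2 thus differed 86.0-fold.

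With 1 h as the reference, neither gene was called at any time. Mt2 differed by 0.71 ± 0.74 at 12 h, 0.72 ± 0.74 at 1 d, 0.19 ± 0.74 at 2 d and -2.54 ± 0.74 at 16 d, with limma adjusted p of 0.543, 0.508, 0.861 and 0.0646. Mt1 in the same fit differed by 0.87 ± 0.57, 0.77 ± 0.57, 0.18 ± 0.57 and -2.04 ± 0.57, with limma adjusted p of 0.311, 0.354, 0.834 and 0.0550. All 5 arrays of Mt1 at 12 h lay above all 5 at 1 h. The exact permutation test of Mt1 alone called 12 h and 1 d against 1 h (adjusted p = 0.0317 each over 4 times), and that of Mt2 did not (0.0635 each). The shares of the 18194 genes called against 1 h were 18.6% at 12 h, 23.3% at 1 d, 28.1% at 2 d and 2.78% at 16 d.

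From 2 d to 16 d the transcripts of both genes fell. Mt1 differed by -2.21 ± 0.57 (limma adjusted p = 0.00706) and Mt2 by -2.73 ± 0.74 (6.63-fold, limma adjusted p = 0.00948), where 21.2% of all genes were called. The groups overlapped, since 16 d replicate 5 exceeded every 2 d array in each gene, and the calls rest on the shared variance of the fit. Fitted on the 2 groups alone, the Mt2 difference was not called (limma adjusted p = 0.0795), and nor was that of Mt1. The exact permutation p for Mt2 was 0.119. From 12 h to 1 d Mt1 and Mt2 differed by -0.11 and 0.01, and from 1 d to 2 d by -0.59 and -0.53, none called, against 1.77% and 8.48% of genes. Ordered by mean, Mt2 ran 1 d, 12 h, 2 d, 1 h and 16 d, and no neighbouring pair differed beyond its spread (exact permutation p adjusted over 4 pairs, 0.286 to 0.976). The moderated F test of limma over the 4 contrasts with 1 h gave an adjusted p of 0.00401 for Mt2 and 0.00133 for Mt1, with 7065 of 18194 genes called.

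The dimmer Mt1 probe set, 1451612_at, had lower means at 12 h, 1 d and 2 d than at 1 h, where the brighter one had higher means. Its means were 7.76 ± 0.27 at 1 h, 7.44 ± 0.76 at 12 h, 7.55 ± 0.90 at 1 d, 7.35 ± 0.53 at 2 d and 6.35 ± 1.40 at 16 d (SD, n = 5 each). At 16 d its arrays read 4.61, 5.52, 6.08, 7.63 and 7.91, with replicates 4 and 5 highest as for the other probe sets. Against 1 h it differed by -0.32 ± 0.50, -0.21 ± 0.50, -0.41 ± 0.50 and -1.41 ± 0.50 at 12 h, 1 d, 2 d and 16 d, none of them called (limma adjusted p = 0.699, 0.792, 0.552 and 0.170). The direction of Mt1 between 1 h and 12 h, 1 d or 2 d thus depends on the probe set. At 6 h the brighter probe set was close to the upper end of the array's scale: 0.0803% of gene values exceeded its mean, and the highest gene value in the 10-group table was 14.08, so differences among its high groups may be understated. Its suffix marks a probe set that may also detect related transcripts.

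**Figure D2:**
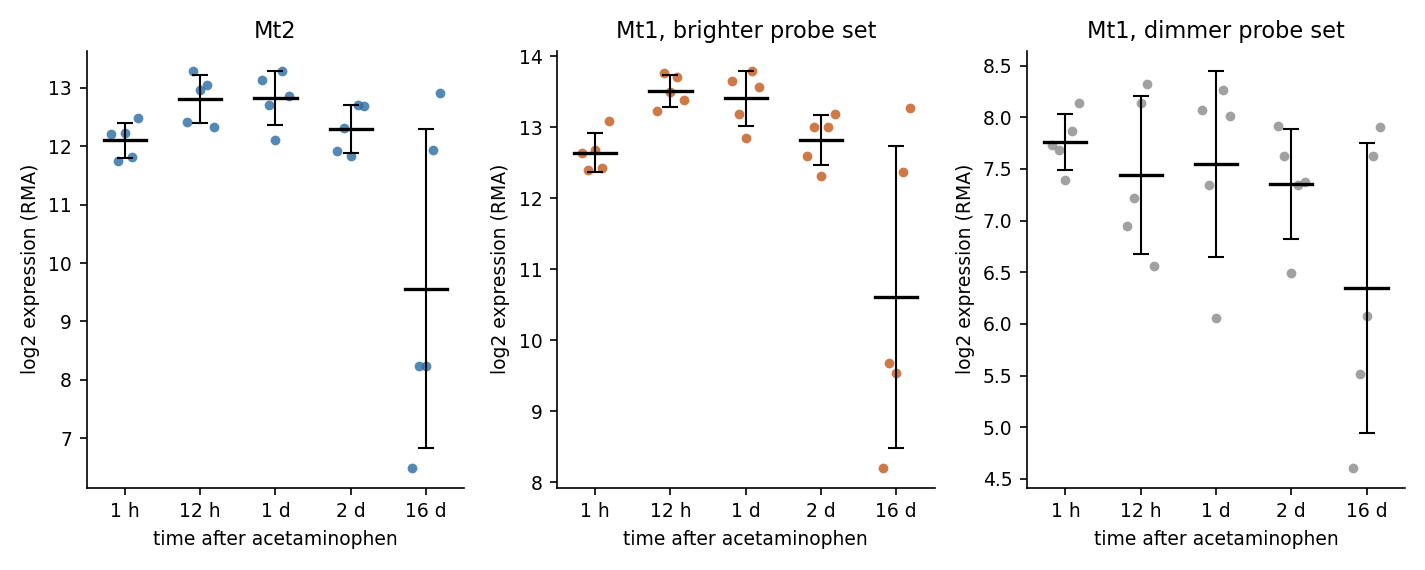
Log2 RMA expression (vertical axes) of Mt2 and of the brighter and dimmer Mt1 probe sets in the 25 complete arrays, by time after the dose (horizontal axes); points are arrays, black lines mean and SD. In each panel 16 d replicates 4 and 5 lie within the range of the earlier groups and 16 d replicate 1 lies below it.

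The brighter Mt1 probe set and Mt2 moved together from array to array. Across the 25 complete arrays, their deviations from the group means had r = 0.993 and rho = 0.945 (permutation p = 1e-05 each, the smallest that 100000 draws can give, and 3e-05 adjusted over 3 pairs of probe sets). Without 16 d replicates 1 and 5, the 2 arrays farthest out, r was 0.982 (n = 23), and without the 16 d group it was 0.926 (n = 20). Mt1 and Mt2 ranked the 5 arrays in the same order at 1 h, at 1 d and at 16 d. The dimmer Mt1 probe set had r = 0.814 with the brighter one and 0.811 with Mt2 (permutation p = 0.00011 and 0.00029), and these were 0.698 and 0.687 without the same 2 arrays. All of these probe sets share array, RNA extract and labelling. By its suffix the brighter Mt1 probe set may also detect related transcripts, and the part of Mt2 transcript in its signal was not tested.

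The gap between the members, Mt2 minus the brighter Mt1 on the same array, was similar at the first 4 of the 5 times. Its size depends on the probes, so only its changes are compared. It averaged -0.54 ± 0.10 at 1 h, -0.70 ± 0.23 at 12 h, -0.59 ± 0.12 at 1 d, -0.53 ± 0.16 at 2 d and -1.05 ± 0.61 at 16 d (SD, n = 5 each). No comparison between times was called among 7 exact permutation tests (adjusted p = 0.5 to 0.873). The 16 d group differed most, by -0.50 from 1 h, and its arrays spread from -1.71 to -0.36.

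**Figure D3:**
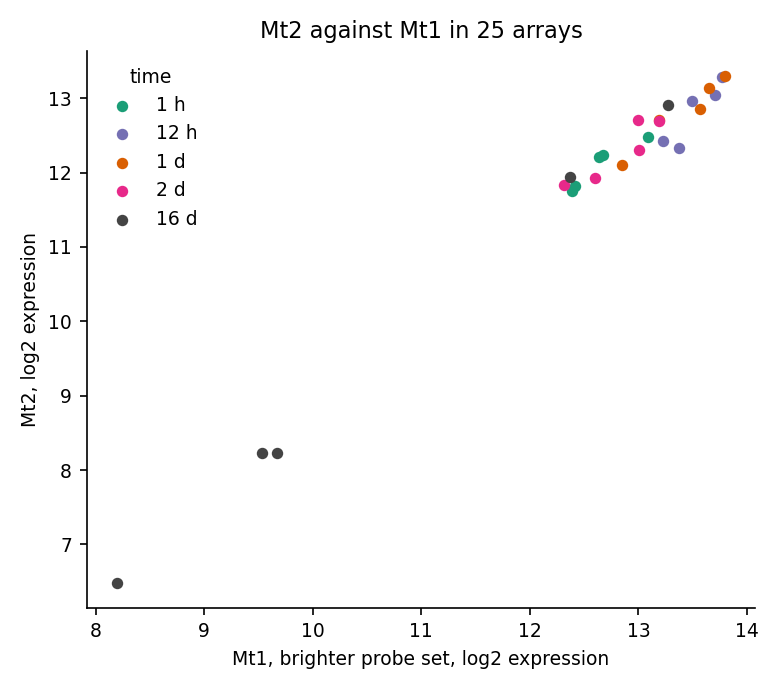
Log2 RMA expression of Mt2 (vertical axis) against the brighter Mt1 probe set (horizontal axis) in the 25 complete arrays, coloured by time after the dose. The 16 d replicates 1, 2 and 3 lie at the lower left, from 6.49 to 8.24 for Mt2, and the other 22 arrays lie above 11.7 for Mt2.

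Mt1 in control and late liver, and Mt2 at 16 d, were among the most variable transcripts between arrays of the same group. Mt2 has no values in control or at 4 d, 6 d and 8 d, and Mt3 had a control SD of 0.25. Within the control group the SD of Mt1, 1.55, was the 4th highest of 5976 genes, against a median gene SD of 0.254. At 16 d it was again the 4th highest (2.12 against a median of 0.230), and it ranked 18 at 4 d, 25 at 6 d and 52 at 8 d. At 6 h, by contrast, its SD of 0.07 ranked 5391. Among the 18194 genes of the complete arrays, Mt2 had the highest SD of all at 16 d (2.73 against a median of 0.233), and Mt1 ranked 9. At 1 h Mt2 ranked 4914. At 6 h the level was near the top of the scale, and its part in the small spread was not tested. The SD ranks were not computed without the 3 narrow arrays, which include the lowest control array and 16 d replicate 4.

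**Figure D4:**
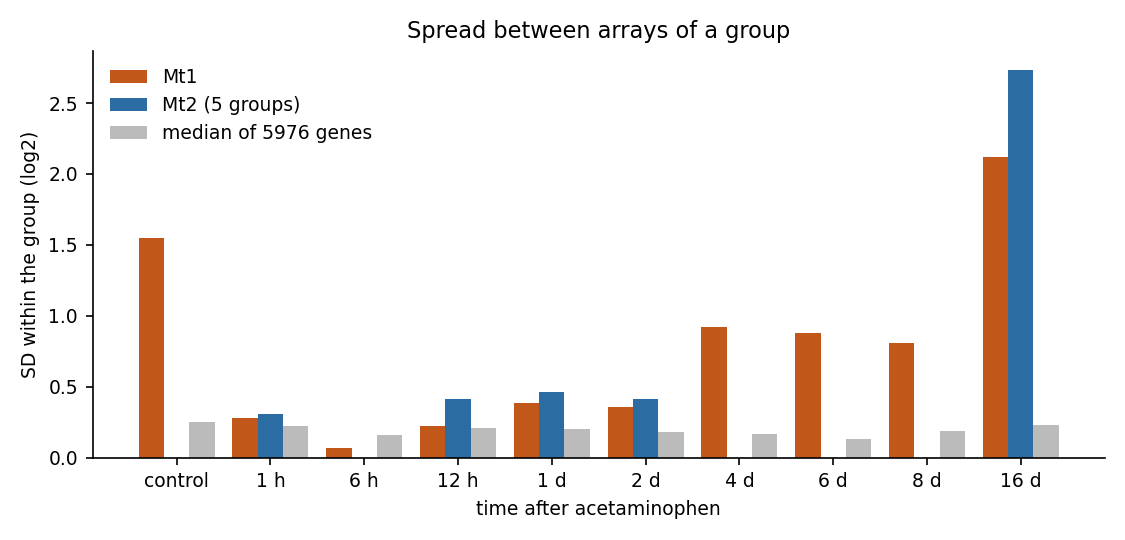
SD of log2 expression between the arrays of a group (vertical axis) for Mt1, for Mt2 in the 5 groups that hold it, and for the median of 5976 genes, by group (horizontal axis). The bars of Mt1 reach 1.55 in control and 2.12 at 16 d, and that of Mt2 2.73 at 16 d, while the median gene stays between 0.131 and 0.254.

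The 16 d arrays with high metallothionein were also those with high Socs3, the feedback inhibitor of STAT3 signalling. Socs3 in the 10-group table read 6.30, 6.96, 6.33, 8.46 and 10.67 on the 16 d arrays in replicate order. Cebpd, a C/EBP transcription factor of the acute phase, read 7.31, 7.61, 7.72, 7.99 and 9.57. Saa1, the acute phase protein serum amyloid A1, read 9.85, 11.07, 10.54, 12.10 and 13.01. In each of these genes replicates 4 and 5 were the 2 highest arrays, as for Mt1 and Mt2. Among the controls, replicate 5 was the highest array for Mt1, Socs3 (8.00), Cebpd (7.84) and Saa1 (13.43), and replicate 3 the lowest for Mt1, Socs3 (6.73) and Cebpd (6.64). Over deviations from group means on the 25 complete arrays, the genes with the highest r to Mt1 after Mt2 were Socs3 (0.914), the kinase gene Pim3 (0.884) and Cebpb (0.848), chosen after their values were seen. The 16 d group had the largest Mt1 SD of these arrays (2.12), and r of these genes without it was not computed. Over all 49 arrays the same measure ranked Cebpd 1 (0.692), Socs3 3 (0.650) and Cebpb 7 (0.619).

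The array also holds the other 2 metallothioneins. Mt3, known mainly from brain, had group means between 4.98 at 6 d and 5.47 at 1 d and was not called against control at any time, though at 1 d it was called without control replicate 3 (0.37, limma adjusted p = 0.0298) or with array weights (0.31, limma adjusted p = 0.0492). Mt4, known from squamous epithelium, read 3.38 ± 0.25 at 1 h and 4.42 ± 1.06 at 1 d (SD, n = 5 each), a difference of 1.03 ± 0.35 (limma adjusted p = 0.0325). Its means at 12 h, 2 d and 16 d were 4.16, 3.72 and 3.39. The 1 d arrays read 5.89, 3.61, 3.66, 5.21 and 3.72, so that replicates 1 and 4, the highest 1 d arrays of Mt1 and Mt2, stood apart from the rest. The call was lost without either of these (0.67 and 0.84, limma adjusted p = 0.116 and 0.1003), without 1 h replicate 3 or 5 and with ribosomal centring (0.63, limma adjusted p = 0.0870). It is a dim probe set: the lowest 10% of gene values in the 10-group table lay below 3.38.

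Of 24 genes of zinc transport, 7 were measured on all arrays. At 6 h 1 was called higher than control, where 5.67% of all genes were called. At 12 h (23.7% of all genes) and at 1 d (29.7%) 2 were higher and 1 lower, and at 2 d (32.6%) 2 were higher. None was called at 1 h or from 4 d on. The 2 d count ranged from 1 to 5 over the alternatives. The list's median difference at 6 h was 0.08, against -0.01 for all genes. Slc30a1 encodes the plasma membrane zinc exporter ZnT1, like Mt1 a known MTF-1 target. It rose by 0.95 ± 0.21 at 6 h (6.47 to 7.42, limma adjusted p = 0.00199) and was called at no other time, with differences from -0.43 at 16 d to 0.29 at 1 d elsewhere. Slc30a4, a zinc exporter of vesicles, rose by 0.96 ± 0.17 at 1 d, and Slc39a7, which releases zinc from the endoplasmic reticulum, by 0.56 ± 0.16 at 12 h. Slc30a5, another zinc exporter, was 0.40 ± 0.15 above control at 12 h, close to the threshold (limma adjusted p = 0.0466): the call was lost when any of 7 single arrays was left out, with array weights, with each array centred on its ribosomal protein genes or on its median, and with the replicate number as a block (limma adjusted p = 0.0514). Slc39a8, the importer ZIP8, fell by 0.86 ± 0.18 at 12 h.

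All 24 zinc transporters were measured on the complete arrays. Against 1 h, 6 were called higher and 2 lower at 12 h (18.6% of all genes), 7 and 3 at 1 d (23.3%), 9 and 3 at 2 d (28.1%), and 1 and 0 at 16 d (2.78%). Centring on ribosomal protein genes raised the totals from 8 to 13 at 12 h and from 10 to 18 at 1 d, and array weights raised that at 16 d to 5. The largest rises were those of the importers Slc39a10 (1.98 ± 0.30 at 12 h) and Slc39a6 (1.84 ± 0.27 at 1 d). With the mean of its probe sets Slc39a6 was at 0.62, still called. Slc39a14, the importer ZIP14 that takes up zinc into hepatocytes in the acute phase, rose by 1.01 ± 0.21 at 1 d. Slc39a1 rose by 0.73 at 1 d, Slc30a7 by 0.73 and Slc39a11 by 0.62 at 2 d. Ribosomal centring took these to 0.33, 0.39 and 0.28 and Slc39a14 to 0.61, and ended the calls of Slc30a7 and Slc39a11 (limma adjusted p = 0.101 and 0.0787); that of Slc30a7 was also lost without 1 h replicate 3 or 2 d replicate 1 or 5. Slc30a10, a manganese exporter, rose by 1.19 ± 0.23 at 16 d. Slc39a4 at 2 d, Slc39a2 at 1 d and Slc30a8 at 1 d were lower, by -0.48, -0.41 and -0.39, and by -0.83, -0.82 and -0.79 after ribosomal centring. The call of Slc39a4 was lost with median centring (limma adjusted p = 0.0853) or when any of 5 single arrays was left out. Slc30a8 lay near the lower end of the scale.

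Among 12 copper handling genes, 6 were measured on all arrays, and 3 were higher and 1 lower than control at 1 d and again at 2 d, where 29.7% and 32.6% of all genes were called. Without the probe sets marked for cross-hybridisation 2 were called at each of these times. Cp, the plasma copper protein ceruloplasmin, rose by 0.59 ± 0.09 at 2 d, and by 0.32 after ribosomal centring. Atox1, a copper chaperone, rose by 0.40 ± 0.11 at 2 d, a call that ended with ribosomal centring (0.14, limma adjusted p = 0.176) and with median centring (0.17, limma adjusted p = 0.105). Steap3, a metalloreductase, fell by 0.35 ± 0.10 at 12 h, and was not called without 12 h replicate 4 (limma adjusted p = 0.0673). On the complete arrays Ccs, the copper chaperone of superoxide dismutase, fell by 1.32 ± 0.12 from 1 h to 1 d (limma adjusted p = 4.63e-08).

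Of 17 genes listed as possible metallothionein regulators, 12 were measured on all arrays. At each of 6 h, 12 h and 1 d 3 were called higher and 0 lower, with list medians of 0.25, 0.25 and 0.15, where 5.67%, 23.7% and 29.7% of all genes were called. At 2 d 4 were higher and 1 lower (median 0.34, 32.6% of all genes), and ribosomal centring raised the total at 1 d from 3 to 7. On the complete arrays, against 1 h, 7 of 17 were called at 12 h, 4 at 1 d, 6 at 2 d and 0 at 16 d, where 18.6%, 23.3%, 28.1% and 2.78% of all genes were called. Mtf1, which encodes MTF-1, was not called higher than control at any time. It was lower at 2 d (-0.28 ± 0.11, limma adjusted p = 0.0488), a call lost when any of 8 single arrays was left out, and it lay at -0.54 after ribosomal centring. Nr3c1, the glucocorticoid receptor, was not called, with differences from -0.32 at 1 h to 0.21 at 8 d. Cebpb rose by 1.18 ± 0.17 at 12 h and was called at 7 of 9 times. Nfe2l2, which encodes NRF2, rose by 0.90 ± 0.18 at 2 d, Il6st, the gp130 chain of the interleukin 6 receptor, by 0.60 ± 0.13 at 1 d, and Il6ra, its ligand-binding chain, by 0.81 ± 0.18 at 1 h. After ribosomal centring Il6st stood at 0.30, still called. The call of Il6ra was lost without control replicate 2 (0.65, limma adjusted p = 0.147) or without 1 h replicate 1 or 4. Socs3 was called at 6 h alone (1.72 ± 0.53, limma adjusted p = 0.0439), and not when any of 6 single arrays was left out or with the replicate number as a block (1.61, limma adjusted p = 0.0552).

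Of 10 glucocorticoid targets measured on all arrays, 7 were called higher and 1 lower at 6 h, where 5.67% of all genes were called, with a list median of 0.94 against -0.01 for all genes. At 12 h 5 were higher and 1 lower (median 0.56), at 1 d 6 and 1 (0.61), at 2 d 3 and 0 (0.14) and at 8 d 1 and 1 (-0.06). The shares of all genes at these times were 23.7%, 29.7%, 32.6% and 8%. Counts of this list at 1 h, 4 d, 6 d and 16 d are not given. Without the probe sets marked for cross-hybridisation, which removes members too, the totals fell to 4 at 6 h, 3 at 12 h and 4 at 1 d. Fkbp5, a co-chaperone of the glucocorticoid receptor, was 0.90 above control at 6 h and 0.93 at 1 d and fell by 1.75 ± 0.26 at 8 d (limma adjusted p = 5.72e-06). Igfbp1, an insulin-like growth factor binding protein induced by fasting and stress, rose by 5.89 ± 0.52 at 6 h and was called at all 9 times. These include 1 h, where 0.636% of all genes were called. Sgk1, a kinase, rose by 2.36 ± 0.26 at 6 h, and Cdkn1a, which encodes p21, an inhibitor of cyclin-dependent kinases, by 3.39 ± 0.40 at 1 d. Tsc22d3 was the member lower at 1 d (-0.94 ± 0.26, limma adjusted p = 0.00525) and was called at 3 of 9 times. Some members were held only by the complete arrays and are given at their largest difference from 1 h. Tat differed by -0.88 at 1 d and Dusp1 by -2.24 at 16 d, Lcn2 by 4.16 at 1 d and Per1 by 0.56 at 12 h, all called. The alternatives were not run for Tsc22d3, Tat, Dusp1 and Per1. Many of these genes also answer to other signals.

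NRF2 targets, the antioxidant programme, were measured in 10 members on all arrays. At 6 h 3 were called higher, at 12 h 7 (list median 1.12) and at 1 d 7 (0.72), with none lower, where 5.67%, 23.7% and 29.7% of all genes were called. At 2 d 1 was higher and 1 lower (median 0.05, 32.6% of all genes), and at 4 d 4 were higher and 1 lower (median 0.23, 16.5%). The 2 d total of 2 became 5 with ribosomal or median centring and 0 without the probe sets marked for cross-hybridisation. Txnrd1, thioredoxin reductase, rose by 1.80 ± 0.15 at 12 h, Srxn1, sulfiredoxin, by 1.75 ± 0.15 and Slc7a11, the cystine importer, by 1.38 ± 0.15. Pgd, of the pentose phosphate pathway, rose by 2.55 ± 0.21 at 1 d.

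Of 7 acute phase genes measured on all arrays, 0 were called at 6 h, 2 were higher and 1 lower at 12 h, 4 and 1 at 1 d, 3 and 0 at 2 d, and 4 and 0 at 6 d, where 5.67%, 23.7%, 29.7%, 32.6% and 8.53% of all genes were called. Apcs, serum amyloid P, rose by 2.13 ± 0.26 at 1 d. Saa4 fell by 1.62 ± 0.34 at 12 h, and Hamp, the iron hormone hepcidin, by 0.79 ± 0.17 at 8 d. On the complete arrays Lcn2, lipocalin 2, rose by 4.16 ± 0.54 from 1 h to 1 d.

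The gene most like Mt1 over the 49 arrays was Cebpd (Pearson r = 0.852). Next came Nrg4, a neuregulin (0.803), Fkbp5 (0.777), Cyp3a13, a cytochrome P450 (0.775), and Cdkn1a (0.768), among 5975 genes. Over the 25 complete arrays the closest to Mt1 were Mt2 (0.993), Cebpd (0.857), Sertad1 (0.804), Cdkn1a (0.804) and Rgmb, a BMP co-receptor (0.800). The closest to Mt2 were Mt1, Cebpd (0.835), Rgmb (0.777), Sertad1 (0.776) and Gadd45g, a stress-response gene (0.767). These are descriptions over arrays that share groups and processing. Cebpd was called at 1 h (1.48, limma adjusted p = 0.00157). It stood 2.13 above control at 6 h, 1.94 at 12 h, 1.58 at 1 d and 1.48 at 2 d, then at -0.20 at 8 d. Nrg4 was highest at 12 h (2.73). Cyp3a13 was called at 12 h (0.59) and at 8 d (-0.54), the latter not without control replicate 5 (-0.42, limma adjusted p = 0.117) or any of 3 other single arrays. These comparisons share the control arrays with that of Mt1, and the ordering of the genes was not tested.

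**Figure D5:**
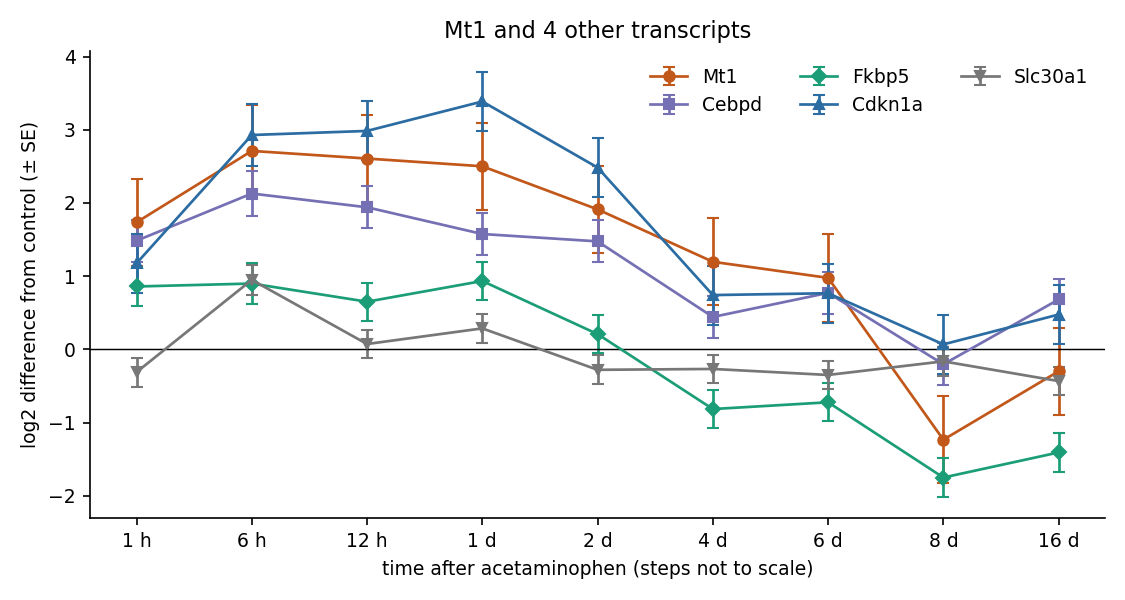
Log2 difference from control with its SE (vertical axis) at 9 times (horizontal axis, steps not to scale) for Mt1, 3 of the genes most like it over 49 arrays (Cebpd, Fkbp5, Cdkn1a) and the zinc exporter gene Slc30a1. Mt1 lies at 2.71 at 6 h and at -1.23 at 8 d, where Fkbp5 lies at -1.75, and Slc30a1 was called at 6 h alone.

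Markers of other cells moved over the same days. Of all 5976 genes, 5.67% were called against control at 6 h, 23.7% at 12 h and 29.7% at 1 d. At 2 d, 8 d and 16 d the shares of all genes were 32.6%, 8% and 6.66%. The 2 neutrophil markers measured of 6, S100a8 and Csf3r, were called higher at 12 h and 1 d. Their summed log2 level ranged from 5.94 to 7.14 in control, 7.45 to 8.53 at 6 h, 7.40 to 11.49 at 12 h and 8.25 to 11.37 at 1 d. Of 7 monocyte and macrophage markers 5 were measured, with 1 called higher at 6 h, 2 at 12 h, 4 at 1 d and 5 at 2 d. Their summed level ranged from 9.81 to 10.64 in control, 9.88 to 11.31 at 6 h and 11.40 to 11.96 at 2 d. Of 5 stellate cell and myofibroblast markers 4 were measured, and 3 were called higher at 2 d. Their summed level ranged from 10.14 to 10.82 at 2 d, when Mt1 was also called higher, against 6.53 to 7.25 in control, 6.97 to 7.28 at 6 h and 7.63 to 9.17 at 1 d. The 2 pancreas markers measured of 3, Prss2 and Cela1, had summed levels of 8.84 to 9.99 at 8 d and 9.03 to 9.99 at 16 d, the times of the lowest Mt1 means, against 8.02 to 8.65 in control, and 1 of them was called higher at each of these times. Their summed level was also above control at 6 d (9.10 to 9.69), when the Mt1 mean of 11.88 lay above the control mean of 10.91. Of 5 pericentral hepatocyte markers 3 were measured, and 2 were lower at 6 h and 3 at 12 h, 1 d and 2 d. Their summed level ranged from 14.28 to 14.42 in control, 13.20 to 14.04 at 6 h and 12.59 to 13.19 at 1 d. The part of these cell types in the Mt1 levels was not tested.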

How the data were processed

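Total liver RNA was labelled with biotin from oligo(dT)-primed cDNA, per the labels' protocols. The deposited values are log2 expression that the authors made with oligo 1.52.0 and RMA, per the submitters' processing notes. Other steps are not given in the sources used here. The table holds 45101 probe sets, with 8137 of them on all 49 arrays. Genes were named through GEO's platform annotation, probe sets with 1 symbol were kept, and the brightest by mean stood for its gene. Limma 3.58.1 (R 4.3.3) fitted 1 mean per group over all groups of a table, with eBayes and Benjamini-Hochberg adjustment over all genes of a comparison. Precision is limited by the 4 or 5 arrays a group. The fit was tested on simulated data. Promoter sequences are from RefSeq (GRCm38.p6), and both members matched. The members and lists were chosen with earlier results of these data known. A time for which the count of a list is not printed may hold calls too. Genes named are Mt1 and Mt2, called zinc transporters, the 4 members of each other list with the smallest F test p at their largest difference, and the 5 genes most like each member. Exceptions are other genes and times given as levels or for contrast: Mt3, Mt4, Mtf1, Nr3c1, Socs3, Tsc22d3, Tat, Dusp1, Per1, Saa1, Pim3, Alb, Umod and the neutrophil and pancreas markers, and further times of Cebpd, Fkbp5, Nrg4, Cyp3a13 and Slc30a1. Alternatives covered left-out arrays, the groups fitted, array weights, normalization, centring, the replicate block, the probe set rule and the test. The exact permutation tests, likeness over deviations and the dimmer probe set were added after seeing the data.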

Additional observations from a re-analysis of the deposited data

Results flagged for a closer look

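At 6 d the highest Mt1 array, replicate 2, read 13.38, while the next of the 5 arrays read 11.78. Its gap to that array made up 0.711 of the group's range, just above the critical value of 0.710 for 5 values. Of 35 groups of arrays checked this way over the metallothionein probe sets, 1 stood out, and chance alone singles out about 1 group in 20.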

How the results depend on the processing

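The higher Mt1 levels at 6 h, 12 h and 1 d against control kept their direction and call under every alternative tried that measures them. Without the probe sets marked for cross-hybridisation Mt1 has no value in the 10-group table. Over all comparisons of the members, 318 alternative values other than those leaving out 1 array kept direction and call, 22 became called, 6 lost a call and 16 changed sign. For the changes below the cause was not tested. Against control, Mt1 at 2 d was 1.47 without the 3 narrow arrays and 1.91 in the exact permutation test, neither called. Array weights gave called values of -1.95 at 8 d and -1.57 at 16 d against control and -2.43 from 6 d to 8 d. Fitting the 2 groups compared alone called Mt1 at 6 h against 1 h (0.98), and Mt1 and Mt2 against 1 h at 12 h (0.87, 0.71) and 1 d (0.77, 0.72), and ended the calls from 2 d to 16 d (-2.21, -2.73). The exact test called Mt1 at 12 h (0.87) and 1 d (0.77) against 1 h. Mt1 and Mt2 at 16 d against 1 h became called without the narrow arrays (-2.47, -3.10), with array weights (-2.70, -3.41), quantile normalization (-2.06, -2.58) and without dim genes (-2.04, -2.54), and Mt1 alone with ribosomal centring (-2.06). Ribosomal centring, which moved the median of all genes by -0.14 at 12 h, -0.30 at 1 d and -0.27 at 2 d against control and by -0.25, -0.40 and -0.34 at these times against 1 h, turned 2 d against 1 h to -0.17 for Mt1 and -0.15 for Mt2, 12 h to 1 d to -0.14 for Mt2, and Mt3 at 1 d against control to -0.023. Median centring gave -0.0012 for Mt2 from 12 h to 1 d. The mean of the probe sets gave Mt1 -0.12 at 2 d against 1 h and 0.0030 from 12 h to 1 d. The dimmer probe set, also the one left without marked probe sets, gave -0.32, -0.21 and -0.41 at 12 h, 1 d and 2 d against 1 h, 0.11 from 12 h to 1 d and, not called, -1.003 from 2 d to 16 d. The change of Mt2 minus that of Mt1 was -0.050 at 2 d against 1 h after quantile normalization, and limma called it at 16 d against 1 h (-0.50) and against 2 d (-0.52).

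Leaving out 1 array, Mt1 ranged from 1.47 to 2.44 at 2 d, 0.75 to 1.72 at 4 d and -0.97 to 0.30 at 16 d against control, and from -0.20 to 0.035 from 12 h to 1 d. Against 1 h at 16 d it ranged from -2.70 to -1.43 and Mt2 from -3.38 to -1.77, called without 16 d replicate 4 or 5. Mt2 from 12 h to 1 d ranged from -0.11 to 0.19. The gap's change ranged from -0.044 to 0.056 at 2 d against 1 h and from -0.00068 to 0.0999 from 1 d to 2 d.

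Same-numbered arrays did not deviate together in every pair of any comparison. With the replicate number as a block, 29 of 31 comparisons kept their call and direction, Mt1 from 6 h to 12 h became 0.032, and Mt1 at 16 d against 1 h (-2.04) became called. Counts of called genes moved by more than 1.5 times under some settings. Against control they went from 38 up to 131 at 1 h (79 without control replicate 3), from 339 to between 223 (without 6 h replicate 5) and 759 at 6 h, from 1419 down to 805 at 12 h, from 1772 to between 1135 and 3617 at 1 d, from 1948 up to 3546 at 2 d, from 988 up to 1529 at 4 d, from 510 up to 986 at 6 d, from 478 up to 816 at 8 d and from 398 to between 213 and 780 at 16 d. On the complete arrays ribosomal centring raised them against 1 h from 3377 to 9831 at 12 h, from 4239 to 12956 at 1 d and from 5117 to 12293 at 2 d, and from 2 d to 16 d from 3857 to 11131, and array weights raised that at 16 d against 1 h from 506 to 2131 (324 without 1 h replicate 5). Between neighbouring times they spread from 136 (without 6 h replicate 5) to 817 for 1 h to 6 h, where 254 is reported, 223 to 1032 for 6 h to 12 h (554 reported), 39 to 502 for 12 h to 1 d (304 reported) and 83 to 694 on the complete arrays (322), 1016 (without 1 d replicate 1) to 2404 for 1 d to 2 d on the complete arrays (1542), 823 to 2731 for 2 d to 4 d (1150) and 106 to 591 for 4 d to 6 d (142), and array weights called 8 from 6 d to 8 d. With ribosomal centring the share of called genes that were higher than control was 24.3% at 12 h, 14.4% at 1 d and 20.9% at 2 d, against 48.5%, 54.7% and 61.0%, and with median centring 39.7% at 1 d and 24.8% at 2 d. Against 1 h ribosomal centring gave 9.90%, 7.12% and 11.9% at these times, where it had been 44.7%, 49.99% and 52.7%. Of the counts of list members called, 184 of the alternative values moved by more than 1.5 times and 1160 did not, and of the named genes' alternative values 800 kept direction and call, 63 lost a call, 3 became called and 1 changed sign. Without the 3 narrow arrays Socs3 at 6 h (1.56, limma adjusted p = 0.0871) and Slc30a5 at 12 h (0.30, limma adjusted p = 0.124) against control lost their calls. Mt4 at 1 d against 1 h (0.997, limma adjusted p = 0.0634) lost its call too, and Mt3 at 1 d against control became called (0.37, limma adjusted p = 0.0211).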
